A study of Mus musculus with 4 samples.

Results

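The genes described here are the FGF receptors and their partners in mouse intestinal crypts. They are the 4 receptor tyrosine kinases Fgfr1, Fgfr2, Fgfr3 and Fgfr4, the kinase-less receptor Fgfrl1, the co-receptor Klb, the adaptor Frs2, the carrier Fgfbp1 and the gut hormone Fgf15. These 9 genes were chosen by name from the 53845 genes of the count table, and were chosen with their WT against Vil-CREPTKO values in view. The contrast between genotypes therefore helped to select them, and it is given for them as a description, not as a test of these genes. Of the 9 genes, 8 passed the filter on low counts that left 17504 genes, and Fgf15 did not.

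RNA-seq was performed on crypts, the pockets of the epithelium in which its stem cells sit, to ask how gene expression in uninjured crypts depends on CREPT. CREPT, the product of Rprd1b, binds RNA polymerase II. There were 2 libraries from WT mice and 2 from Vil-CREPTKO mice, all on a C57BL/6 background, and mice of both sexes aged 6 to 8 weeks were used in the study. In Vil-CREPTKO mice, Cre driven by the villin promoter removes the floxed exon 3 of CREPT in epithelial cells of the small and large intestine from gut development on, and other cell types keep the gene. Crypts were freed with EDTA, by a protocol described for the small intestine, and the segment was not named. Neither the age of each animal nor whether WT mice carried the floxed allele was given. The libraries are described as biological replicates from 2 mice per genotype, and the labels do not say which animal gave which library.

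Fibroblast growth factors bind receptor tyrosine kinases on the cell surface together with heparan sulfate or a Klotho protein. The docking protein FRS2, held at the receptor, then links it to the RAS and ERK cascade, and Sprouty, SPRED and DUSP proteins dampen the signal. In the gut, FGFs of the mesenchyme reach epithelial receptors during development and repair. FGF15, made by the ileal epithelium under the bile acid receptor FXR, is known as a hormone that acts on the liver through FGFR4 and β-Klotho.

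The libraries held 47241049 to 49369315 counts, and mitochondrial genes took 6.75% to 10.2% of them, most in Vil-CREPTKO replicate 1. Values are CPM, counts scaled to the TMM-adjusted library total, unless a sentence says otherwise. Rprd1b was lower in both Vil-CREPTKO libraries, at 26.3 and 29.0 CPM against 60.5 and 61.6 CPM in WT, and the edgeR quasi-likelihood test gave a log2 fold change of -1.14 with an SE of 0.12 (adjusted p = 0.0041). The 7 epithelial markers summed to 7908 to 8844 CPM in each library, led by Krt8 and Vil1, whereas 5 endothelial markers summed to at most 3.90 CPM. The 8 immune cell markers were not negligible, with sums of 206.5 and 144.8 CPM in WT and 149.8 and 117.6 CPM in Vil-CREPTKO. By edgeR 0 of the 8 were called, with 1, Cd8a, lower at an unadjusted p under 0.05, and DESeq2 called 0. Over all 17504 tested genes, 2495 had an unadjusted p under 0.05 by edgeR. Xist stood at 863 CPM in WT replicate 2 and at or below 0.529 CPM in the other libraries, so the WT libraries differed in a sex-linked transcript. Crypts are mixtures, and fewer cells of a type cannot be told apart from less RNA per cell in any value below.

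Among the receptor kinases, Fgfr3 was the most abundant. Fgfr3 (ENSMUSG00000054252) lies on chromosome 5, 33721674 to 33737068 on the plus strand of GRCm38, and its longest coding transcript has 18 exons. The WT libraries held 1590 and 1389 Fgfr3 counts, and the Vil-CREPTKO libraries 685 and 939. These were 31.1 and 28.2 CPM for WT against 15.8 and 19.1 CPM for Vil-CREPTKO. Both Vil-CREPTKO libraries lay below both WT libraries, and the gap between the genotypes was wider than the spread within either. The means were 29.7 ± 2.07 CPM in WT and 17.4 ± 2.38 CPM in Vil-CREPTKO (SD, n = 2 each), so that the Vil-CREPTKO mean was 58.8% of the WT mean. The log2 fold change was -0.77 (SE 0.15), and it stayed between -0.91 and -0.61 under every alternative scaling, filter, correction and left-out library that was tried.

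An overlapping gene bears on how Fgfr3 reads were counted. The gene model G630022F23Rik on the opposite strand shares 998 exon bases with Fgfr3, and it held 20 and 6 counts in WT and 0 and 3 in Vil-CREPTKO. The strand setting of the counting was not stated, so reads of this pair cannot be assigned with certainty, but the partner's counts were small beside those of Fgfr3. The qPCR primers that the study designed for Fgfr3 are shown because they mark the stretch of the transcript in which the gene was measured by a different method. Both primers match 8 of the 13 coding Fgfr3 transcripts of GENCODE M21, where they bound an amplicon of 217 bases between chr5:33722421-33727772, in exons 2 and 3 of Fgfr3-210.
Fgfr3 forward primer: gcctgcgtgctagtgttct
Fgfr3 reverse primer: taccatccttagcccagaccg

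Fgfr2 was also lower in Vil-CREPTKO, by less and with very little spread. Fgfr2, whose epithelial splice form is the receptor for FGF7 and FGF10 of the mesenchyme, lies on chromosome 7. The coding transcript that the annotation tags as principal runs from 130163709 to 130266191 on the minus strand with 18 exons. It stood at 12.7 and 12.5 CPM in WT and at 9.89 and 9.80 CPM in Vil-CREPTKO. The replicates of each genotype lay nearly on top of each other and the genotypes did not overlap. The mean in Vil-CREPTKO was 78.4% of that in WT (log2 fold change -0.35, SE 0.16, with n = 2 each). In the annotation, the whole Fgfr2 gene model spans 2960.9 kb, far beyond the principal transcript, and shares 314 exon bases with Ctbp2. The table gives 1 count per gene, so the epithelial and mesenchymal splice forms were not separated.

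Fgfr4, the liver receptor for FGF15 that is also present in gut epithelium, lies on chromosome 13 from 55152640 to 55168759. Its counts were 400 and 270 for WT against 135 and 225 for Vil-CREPTKO, or 7.84, 5.49, 3.11 and 4.58 CPM. The groups did not overlap, but the higher Vil-CREPTKO library came within 1 CPM of the lower WT library. The Vil-CREPTKO mean was 57.7% of the WT mean, close to the share for Fgfr3, and the log2 fold change of -0.79 had a wider SE of 0.28. Leaving out single libraries moved it between -1.09 and -0.51.

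Fgfr1 was near the floor of detection and went the other way. It is the FGF receptor of many mesenchymal cells and lies on chromosome 8 from 25513654 to 25575718. The 2 WT libraries held 3 and 10 counts, Vil-CREPTKO replicate 1 held 47 and Vil-CREPTKO replicate 2 held 13, or 0.0588, 0.203, 1.08 and 0.265 CPM. Gm16159 on the opposite strand shares 164 exon bases with Fgfr1, and the strand setting of the counting was not stated. Only Vil-CREPTKO replicate 1 stood clearly above the rest for Fgfr1. The log2 fold change was 2.34 (SE 0.89) with all libraries and 1.0 without Vil-CREPTKO replicate 1.

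The same library was the highest for 7 of the 9 listed stromal markers. Col1a1, a collagen of fibroblasts, stood at 0.411 and 0.406 CPM in the WT libraries and at 1.98 and 0.265 CPM in Vil-CREPTKO replicates 1 and 2. Dcn, a matrix proteoglycan, stood at 2.08, 2.74, 6.58 and 1.04 CPM in the same order. Vil-CREPTKO replicate 1 was thus highest and Vil-CREPTKO replicate 2 lowest for both, whereas Fgfr1 was lowest in WT replicate 1. The exceptions were Vim, highest in WT replicate 1 at 9.83 CPM against 9.43 CPM, and Pdgfrb, which was lowest in Vil-CREPTKO replicate 1 at 0.920 CPM. The 9 stromal markers summed to 20.9, 18.4, 34.2 and 14.8 CPM. Of the 7 that were tested, edgeR called 0, with 0 at an unadjusted p under 0.05 and 0 called by DESeq2. The part of stromal RNA in the Fgfr1 value was not tested.

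**Figure D1:**
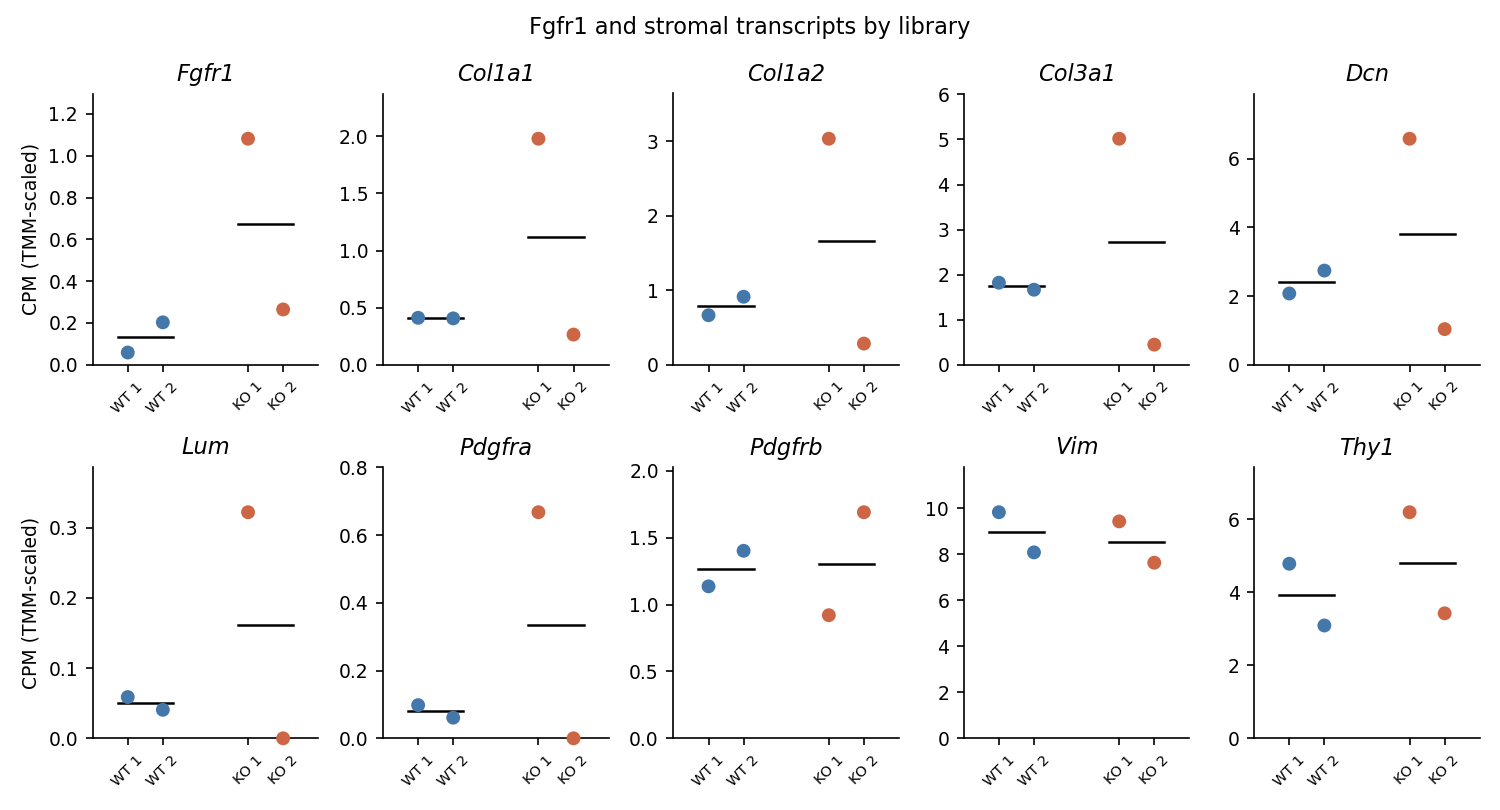
Each panel plots the CPM (vertical axis, TMM-scaled, from 0, with its own scale) of Fgfr1 or of 1 of the 9 listed stromal markers in the 4 libraries (horizontal axis), with a bar at the mean of each genotype. Vil-CREPTKO replicate 1 (KO 1) was the highest library for Fgfr1 at 1.08 CPM and for 7 of the 9 markers, but not for Vim and Pdgfrb.

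Fgfrl1 encodes a receptor that binds FGFs but lacks the kinase domain, and lies on chromosome 5 from 108692382 to 108706924. It stood at 6.72 and 8.72 CPM in WT and at 4.95 and 7.64 CPM in Vil-CREPTKO. The groups overlapped, since the second Vil-CREPTKO library lay above the first WT library (log2 fold change -0.29, SE 0.26). Klb, which encodes β-Klotho, the co-receptor that FGF15 needs, was close to absent in all libraries, with 10 and 25 counts for WT against 1 and 12 for Vil-CREPTKO. The groups overlapped here too, and the log2 fold change of -1.34 had an SE of 0.97.

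Fgf15 was not detected. It had 0 counts in all 4 libraries, which allows at most 0.0588 to 0.069 CPM for 3 counts in a library. Gm26793 and Gm39119 on the opposite strand share 761 and 26 exon bases with Fgf15. The strand setting of the counting was not stated, so the effect of this overlap on the Fgf15 value is not known. Of the other 4 listed markers of the distal small intestine, 2 were low as well. Fabp6, the ileal bile acid binding protein, stood at 0.203 to 0.568 CPM, and Slc10a2, the ileal bile acid transporter, at 0.326 to 1.31 CPM. The other 2 were not low, with Osr2 at 12.9 to 19.9 CPM and Mep1a, a brush border protease, at 45.5 to 87.4 CPM. Gata4, a transcription factor of the duodenum and jejunum, stood at 203 to 257 CPM, and Onecut2 at 150 to 178 CPM. Pdx1, a duodenal factor, stood at 19.4 to 30.6 CPM. The 5 proximal markers summed to 515 to 668 CPM and the 5 distal ones to 60.8 to 105.5 CPM. Proximal markers were present in every library of both genotypes, and none of the 5 listed was called by edgeR or DESeq2 or passed an unadjusted p of 0.05.

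The adaptor and the carrier differed little between the genotypes. Frs2, on chromosome 10 from 117069427 to 117148534, was counted 2330 and 2276 times in the WT libraries, against 1872 and 2412 times in those of Vil-CREPTKO. In CPM these were 45.6, 46.2, 43.1 and 49.1, so the Vil-CREPTKO libraries lay on either side of both WT libraries (log2 fold change 0.01, SE 0.12). Its sign was kept in 10 of 13 alternatives. Fgfbp1 encodes a secreted protein that releases FGFs from heparan sulfate and lies on chromosome 5 from 43978858 to 43981779. It stood at 20.9 and 18.5 CPM in WT and at 21.7 and 21.2 CPM in Vil-CREPTKO, which did not overlap but differed by a log2 fold change of 0.12, less than its SE of 0.15.

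**Figure D2:**
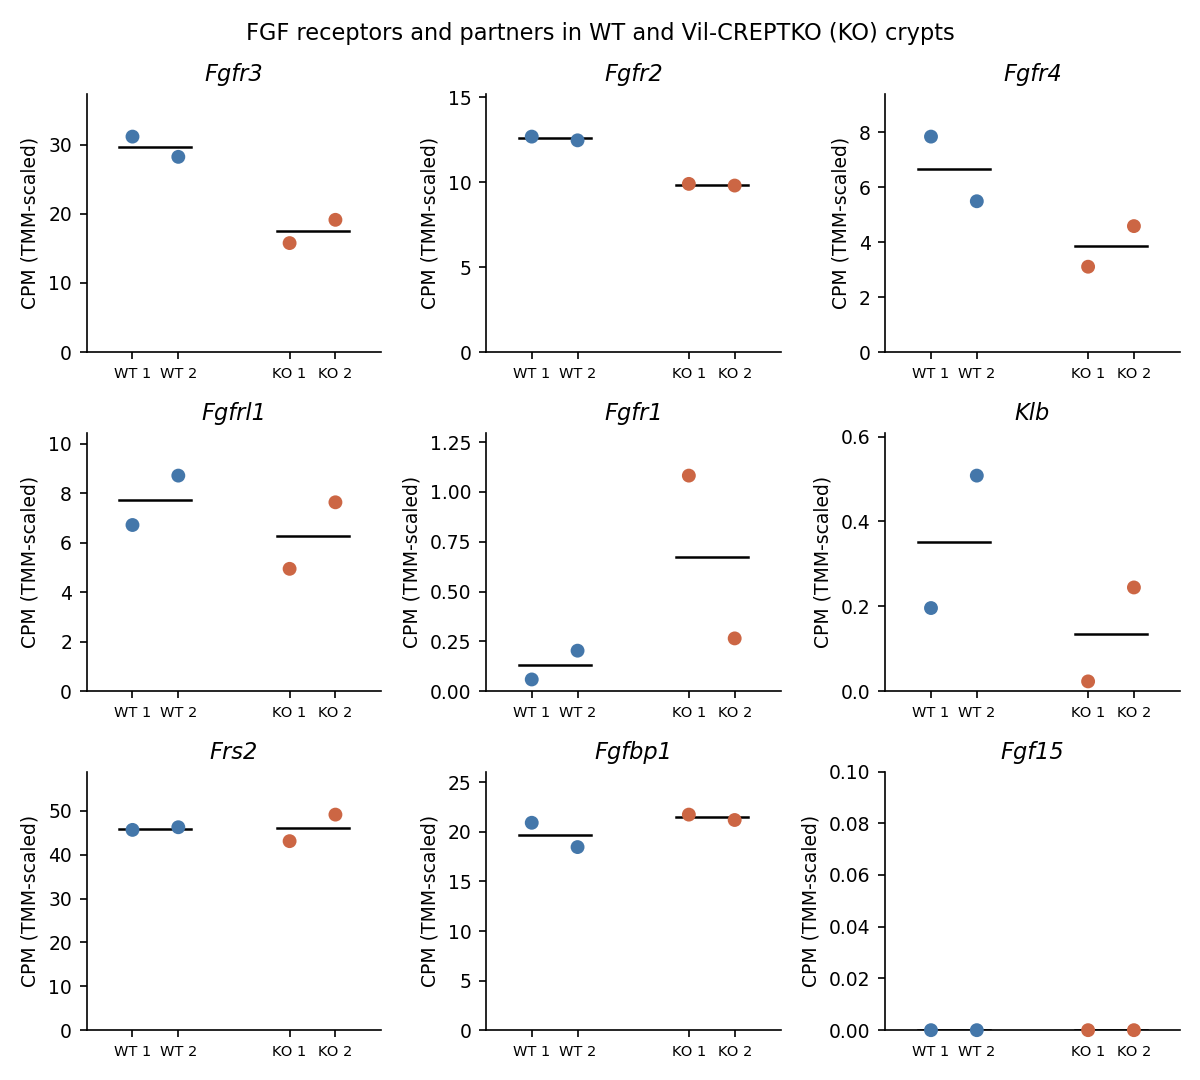
Each panel plots the TMM-scaled CPM (vertical axis, from 0, with its own scale) of 1 of the 9 genes in the 2 WT (blue) and 2 Vil-CREPTKO (KO, red) libraries, with a bar at the mean of each genotype. Fgfr3, Fgfr2 and Fgfr4 lay lower in both Vil-CREPTKO libraries, Fgfrl1, Klb and Frs2 overlapped, and Fgf15 stayed at 0.

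Of the 8 genes that passed the filter, 5 had a negative log2 fold change, beside 50.9% of all tested genes. Their median was -0.32, against -0.01 over all genes tested. At an adjusted p under 0.05 by edgeR, 1 of them, Fgfr3, was lower and 0 were higher, beside 2.29% of all tested genes lower and 0.423% higher. That 1 was under the threshold in 8 of 13 alternatives, and its adjusted p by edgeR or DESeq2 reached 0.11 without Vil-CREPTKO replicate 1. At an unadjusted p under 0.05 by edgeR there were 3, beside 2495 of all 17504 tested genes. The groups did not overlap for 3 genes that were lower, beside 24.2% of all tested genes, and for 2 that were higher, beside 21.0%. The contrast chose these genes, and nothing is read from these counts.

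Per kb of merged exon, the scale on which genes can be compared, the mean levels over the 4 libraries ran from Fgfbp1 at 9.10 CPM per kb through Frs2 at 5.26, Fgfr3 at 3.29, Fgfrl1 at 2.52, Fgfr4 at 1.48 and Fgfr2 at 1.08 to Klb at 0.053, Fgfr1 at 0.041 and Fgf15 at 0. Fgfbp1 and Frs2 did not overlap over the libraries, nor did Frs2 and Fgfr3. Fgfr3 and Fgfrl1 did, as did Fgfrl1 and Fgfr4, Fgfr4 and Fgfr2, and Klb and Fgfr1. In Vil-CREPTKO replicate 2, Fgfrl1 at 2.75 CPM per kb lay above Fgfr3 at 2.67. With the length of the longest coding transcript in place of merged exons, Fgfr2 at 2.60 CPM per kb came before Fgfr4 at 1.58.

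The 4 receptor kinases together gave 7.80 and 6.72 CPM per kb in WT and 4.15 and 4.94 CPM per kb in Vil-CREPTKO. The summed level was lower in both Vil-CREPTKO libraries, since the 3 kinases with appreciable levels all were. The make-up of the sum moved less. Fgfr3 took 55.8% and 58.7% of it in WT and 53.1% and 54.1% in Vil-CREPTKO. Fgfr4 took 28.4%, 23.1%, 21.2% and 26.2%, and Fgfr2 took 15.7%, 17.9%, 23.1% and 19.2%. Fgfr3 was the leading kinase in every library, with a slightly smaller share in Vil-CREPTKO, and the shares of Fgfr4 overlapped between the genotypes.

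**Figure D3:**
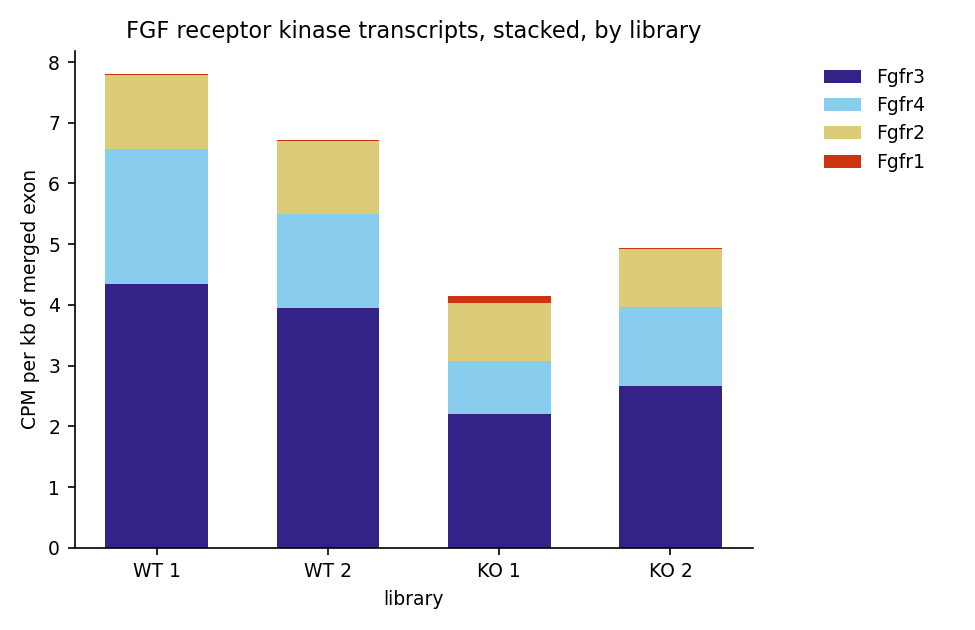
Stacked bars give the CPM per kb of merged exon (vertical axis, from 0) of the 4 FGF receptor kinases in each library (horizontal axis). The sum was 7.80 and 6.72 for WT against 4.15 and 4.94 for Vil-CREPTKO (KO), with Fgfr3 as the largest segment in all 4 libraries.

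The profile of Fgfr3 over the 4 libraries was compared with those of 8794 protein-coding genes with a mean of 10 CPM or more, by the Euclidean distance between log2 CPM values centred on each gene's mean. The 5 nearest genes were Crebzf, a bZIP factor, at 0.0307, Cdk4, a kinase of the G1 phase, at 0.0514, Zfp397, a zinc finger gene, at 0.0651, Muc3a, a membrane mucin, at 0.0694, and AI464131 at 0.0742, beside a median distance of 0.848. Cdk4 stood at 147, 136, 77.9 and 94.1 CPM. With 4 libraries these distances only describe the profiles.

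The upstream sequences of Fgfr3, Fgfr2 and Frs2 are shown to set receptors with lower transcript levels in Vil-CREPTKO beside the adaptor that was level. They come from the RefSeq promoter table of GRCm38.p6, which held 7 of the 9 genes, and each ends before the first transcribed base of the gene in RefSeq. The same holds in GENCODE for Fgfr3 and Frs2. For Fgfr2 it holds for the principal GENCODE transcript, the only one compared. Capitals mark the GC box GGGCGG, searched on both strands, where the other strand reads CCGCCC. Coordinates are chr5:33721474-33721673 on the plus strand for Fgfr3, chr7:130266809-130267058 on the minus strand for Fgfr2 and chr10:117148535-117148724 on the minus strand for Frs2.
Fgfr3: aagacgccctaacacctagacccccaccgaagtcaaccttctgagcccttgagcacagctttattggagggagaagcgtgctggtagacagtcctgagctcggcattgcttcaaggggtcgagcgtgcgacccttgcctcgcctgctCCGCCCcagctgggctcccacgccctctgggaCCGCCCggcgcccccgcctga
Fgfr2: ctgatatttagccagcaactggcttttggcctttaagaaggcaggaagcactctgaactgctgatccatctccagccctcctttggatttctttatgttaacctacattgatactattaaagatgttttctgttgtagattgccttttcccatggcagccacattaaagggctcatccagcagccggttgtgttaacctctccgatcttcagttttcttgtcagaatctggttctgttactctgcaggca
Frs2: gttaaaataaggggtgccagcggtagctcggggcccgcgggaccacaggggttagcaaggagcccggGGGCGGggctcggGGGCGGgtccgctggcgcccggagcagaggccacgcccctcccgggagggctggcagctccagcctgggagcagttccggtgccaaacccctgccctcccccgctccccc

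Over the full 250 bases before the RefSeq start, GGGCGG was found 3 times for Fgfr3, 2 times each for Fgfr4 and Frs2, 4 times for Fgfrl1 and 0 times for Fgfr2, Klb and Fgfbp1, and 32.7% of all 32851 such windows held it. A second Fgfr3 start in the table had 2. The letters were present before lower genes and a level gene, and absent before Fgfr2, which was lower, and Fgfbp1, which differed little. The GC content of the windows was 66.8% for Fgfr3, 64.0% for Fgfr4, 73.6% for Fgfrl1, 71.6% for Frs2 and 44.0% for Fgfr2, beside a median of 52.4% over all windows. The TATA box letters TATAAA, held by 12.4% of all windows on either strand, were found in none of the windows of these 7 genes. A match describes the letters only and is not a site.

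The rest of the pathway was described with 7 lists of 92 genes in all, of which 73 were tested. By edgeR, 0 of the 73 were lower and 0 higher at an adjusted p under 0.05, beside 2.29% and 0.423% of all tested genes. At an unadjusted p under 0.05 by edgeR there were 7, beside 2495 of all 17504 tested genes. DESeq2 called 3, Araf, Spry3 and Spry4, all lower, beside 627 lower and 184 higher of 28324 genes. These backgrounds hold for each list and marker set. Negative log2 fold changes were found for 36 of the 73, beside 50.9% of all tested genes, with a median of 0.00. Non-overlapping groups were found for 17 lower genes and 7 higher genes, beside 24.2% and 21.0% of all genes.

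**Figure D4:**
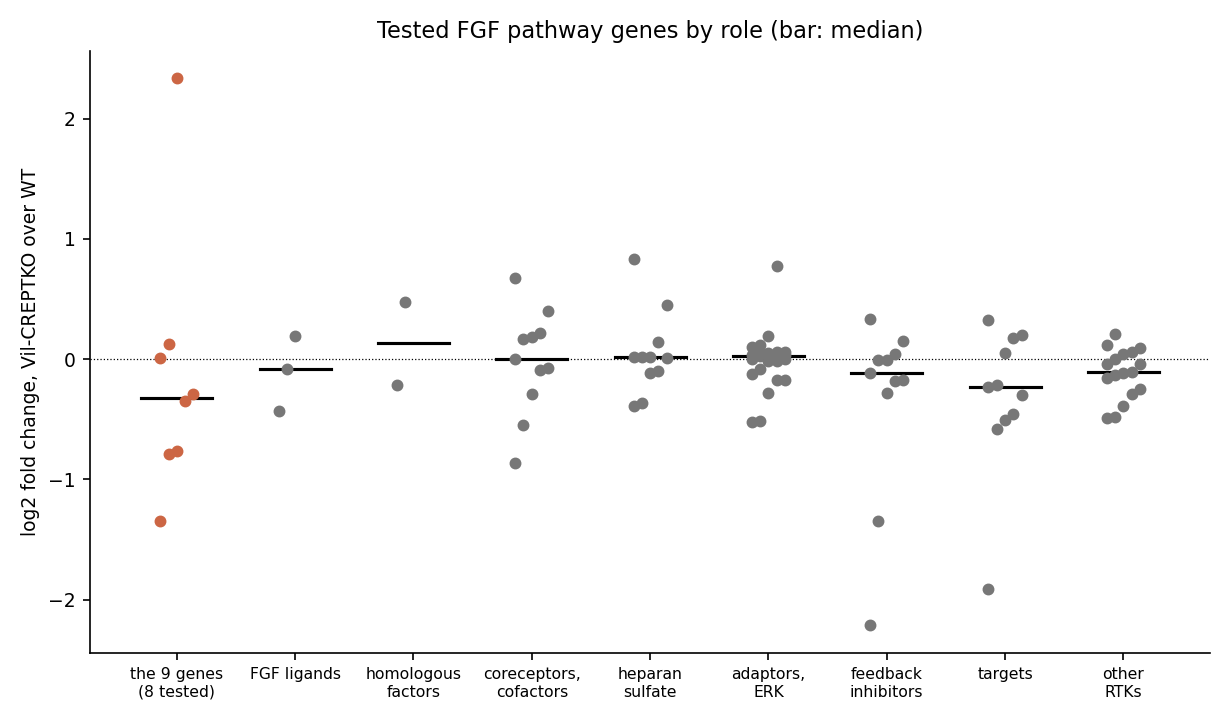
Points give the log2 fold change of Vil-CREPTKO over WT (vertical axis) of each tested gene, by role in the FGF pathway (horizontal axis; RTKs are receptor tyrosine kinases), and bars the median of each list. The chosen genes (red) had a median of -0.32, while the lists' medians lay between -0.23 for the targets and 0.13 for the homologous factors.

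Ligand transcripts were scarce in the crypts. Of 17 ligands, 3 passed the filter, and these were the same 3 that reached 1 CPM in a library. Fgf1, a ligand that binds every FGF receptor, stood at 6.60 and 6.93 CPM in WT and at 6.40 and 6.42 CPM in Vil-CREPTKO. Fgf9, which signals from epithelium to mesenchyme in the developing gut, stood at 3.82, 4.96, 3.20 and 3.32 CPM in the same order (log2 fold change -0.43, SE 0.26). Both lay slightly lower in Vil-CREPTKO without overlap, and neither change passed the test (edgeR adjusted p = 0.91 and 0.53). Fgf2 stood at 2.21, 0.935, 1.79 and 1.81 CPM, and its WT libraries lay on either side of Vil-CREPTKO. The mesenchymal ligands Fgf7 and Fgf10 had at most 0.0813 CPM. The FGF homologous factors, which stay inside the cell, were led by Fgf11 at 8.13, 5.61, 9.36 and 9.71 CPM, higher in Vil-CREPTKO without overlap (edgeR adjusted p = 0.39).

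The surface cofactors were led by the heparan sulfate proteoglycans Sdc4 at 134 to 165 CPM, Sdc1 at 76.5 to 96.1 CPM and Gpc4 at 38.0 to 48.4 CPM. The Klotho gene Kl, co-receptor for FGF23, had 0 counts. Flrt3, a membrane protein that binds FGF receptors, stood at 22.1 and 26.0 CPM in WT and at 16.6 and 16.3 CPM in Vil-CREPTKO. Its groups did not overlap, and its log2 fold change of -0.55 (SE 0.15) did not pass the test (edgeR adjusted p = 0.11). Among enzymes that build or trim heparan sulfate, 11 were tested and 0 were called by edgeR or DESeq2. At an unadjusted p under 0.05 by edgeR there was 1, beside 2495 of all 17504 tested genes. The highest were Sulf2 at 73.6 to 131 CPM, Hs6st1 at 74.4 to 94.0 CPM and Ndst1 at 59.9 to 78.9 CPM. Sulf2, which trims sulfate groups, was higher in both Vil-CREPTKO libraries without overlap and did not pass the test (log2 fold change 0.45, SE 0.18, edgeR adjusted p = 0.28).

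Each of the 24 adaptor and ERK cascade genes passed the filter on low counts. Their log2 fold changes had a median of 0.02, and 9 were negative, beside 50.9% of all tested genes. Mapk3, which encodes ERK1, was the highest at 264 to 309 CPM. Map2k2, an ERK kinase, stood at 231 and 231 CPM in WT and at 183 and 139 CPM in Vil-CREPTKO. Araf, a RAF kinase, stood at 87.2 and 76.7 CPM in WT and at 57.5 and 57.3 CPM in Vil-CREPTKO. Both lay lower without overlap, with log2 fold changes of -0.52 (SE 0.16) for Map2k2 and -0.51 (SE 0.12) for Araf. Neither passed the test (edgeR adjusted p = 0.17 for Map2k2 and 0.066 for Araf), although DESeq2 called Araf. Frs3, the relative of Frs2, was low at 2.19, 2.11, 4.19 and 3.20 CPM, higher in both Vil-CREPTKO libraries without overlap, and did not pass the test (log2 fold change 0.78, SE 0.29, edgeR adjusted p = 0.25). Fgf7, Fgf10, Kl, Flrt3, Araf and Frs3, and below Spry3, Spry4, Nr1h4 and Kit, were picked out after their values were seen.

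The feedback inhibitors were led by Spred2 at 40.1 to 52.5 CPM, Dusp6 at 38.3 to 52.8 CPM and Spred1 at 17.7 to 23.1 CPM. Dusp6, an ERK phosphatase that ERK signalling induces, overlapped between the genotypes. Of the 11 inhibitors, 8 had a negative log2 fold change, beside 50.9% of all tested genes, with a median of -0.12. By edgeR 0 were called, with 2 at an unadjusted p under 0.05, beside 2495 of all 17504 tested genes. DESeq2 called Spry3 and Spry4, both lower, beside 627 lower of 28324 genes. Spry4 stood at 1.70 and 2.42 CPM in WT and at 0.138 and 0.733 CPM in Vil-CREPTKO. Both Vil-CREPTKO libraries lay below WT, with a log2 fold change of -2.22 and an SE of 0.64 (edgeR adjusted p = 0.14). The log2 fold change ran from -1.49 without Vil-CREPTKO replicate 1 to -3.87 without Vil-CREPTKO replicate 2. Over the alternatives its adjusted p ran from 0.00044 to 0.24 by edgeR and DESeq2. Spry3 stood at 3.51, 6.68, 2.78 and 1.24 CPM, again without overlap (edgeR log2 fold change -1.34, SE 0.44, adjusted p = 0.18), and its log2 fold change ran from -0.80 without WT replicate 2 to -2.04 without Vil-CREPTKO replicate 1.

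The 11 transcriptional targets were led by Ccnd1 at 62.5 to 107 CPM, Fos at 56.8 to 94.9 CPM and Myc at 60.7 to 85.5 CPM, and all 3 overlapped between the genotypes. The list had 7 negative log2 fold changes, beside 50.9% of all tested genes, and a median of -0.23. There were 0 calls by edgeR and by DESeq2 and 0 at an unadjusted p under 0.05 by edgeR. Without overlap, 4 of the 11 lay lower in Vil-CREPTKO and 0 higher, beside 24.2% and 21.0% of all tested genes. One of them, Etv5, an ETS factor induced by FGF signalling and picked out after its values were seen, stood at 5.52 and 5.24 CPM in WT and at 3.68 and 3.89 CPM in Vil-CREPTKO (edgeR log2 fold change -0.51, SE 0.23, adjusted p = 0.36).

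**Figure D5:**
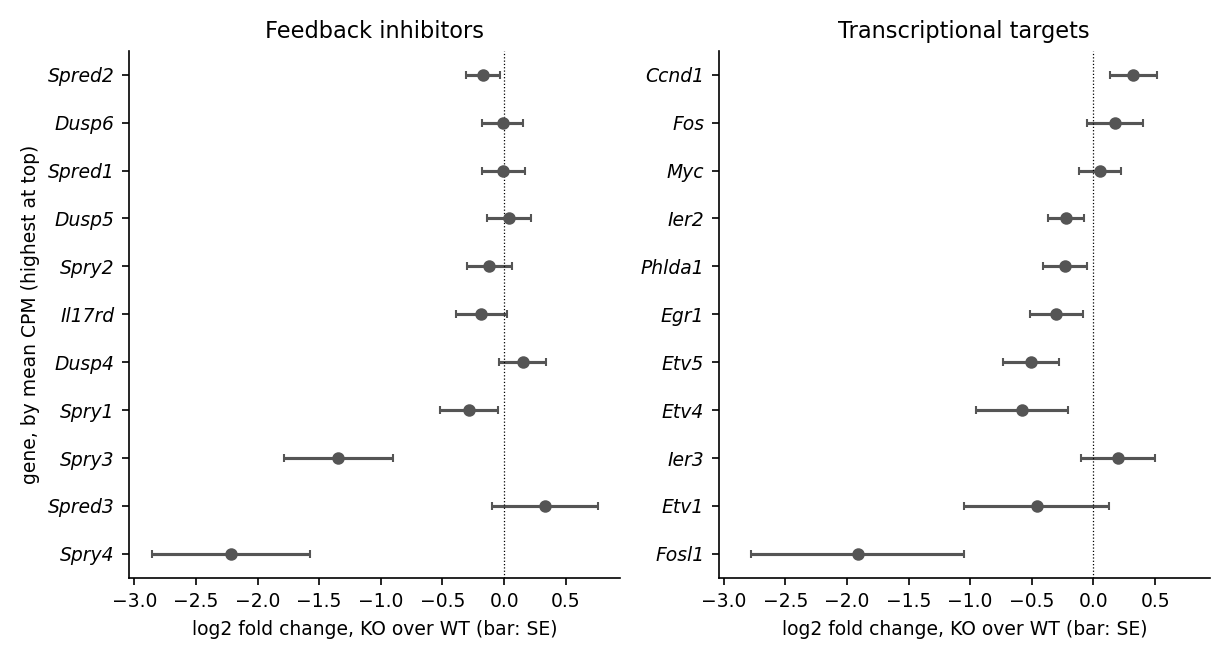
Points give the log2 fold change of Vil-CREPTKO over WT (horizontal axis) with its SE as a bar, for the 11 feedback inhibitors (left) and 11 transcriptional targets (right), ordered by mean CPM with the highest at the top. The abundant genes Spred2, Dusp6 and Spred1 lay near 0, while Spry4 at -2.22 and Spry3 at -1.34 lay among the low genes.

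Genes of bile acid handling, with which Fgf15 is regulated, were read beside it. Nr1h4, the gene for the receptor FXR, stood at 30.0 and 26.3 CPM in WT and at 32.6 and 35.5 CPM in Vil-CREPTKO, higher without overlap (edgeR adjusted p = 0.42). Slc51a and Slc51b, the basolateral bile acid exporter, stood at 94.7 to 132 CPM and 21.2 to 46.3 CPM. Malrd1, a gene known to affect FGF15 release from enterocytes, stood at 86.9 and 122 CPM in the WT libraries and at 83.9 and 71.4 CPM in those of Vil-CREPTKO, slightly lower without overlap, and did not pass the test (edgeR adjusted p = 0.30). Of the 7 tested genes, 1 was called and lower, beside 2.29% of all genes. This was Nr0b2, an FXR target that encodes the repressor SHP, at 2.45 and 2.48 CPM in WT and 0.851 and 0.611 CPM in Vil-CREPTKO. Its log2 fold change was -1.75 with an SE of 0.37 (edgeR adjusted p = 0.047). The call held in 6 of 13 alternatives and was lost, for example, with RLE scaling (adjusted p = 0.054) and without Vil-CREPTKO replicate 2 (adjusted p = 0.10).

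Other receptor tyrosine kinases gave a setting for the FGF receptors. Of 17 tested, 11 had a negative log2 fold change, beside 50.9% of all tested genes, with a median of -0.11. Without overlap, 6 lay lower and 1 higher, beside 24.2% and 21.0% of all tested genes. By edgeR 0 were called, with 2 at an unadjusted p under 0.05, beside 2495 of all 17504 tested genes, and DESeq2 called 0. Erbb3 at 358 to 394 CPM, Erbb2 at 98.9 to 154 CPM and Ephb4 at 73.6 to 111 CPM were the highest. The 2 with an unadjusted p under 0.05 were Erbb2 (log2 fold change -0.49, SE 0.13) and Kit (log2 fold change -0.48, SE 0.13), both lower in Vil-CREPTKO.

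Some cell type markers also differed between the genotypes. As a background for the counts below, 2495 of all 17504 tested genes had an unadjusted p under 0.05 by edgeR. DESeq2 called 627 lower and 184 higher of 28324 genes. The 6 tuft cell markers summed to 196 and 234 CPM in WT and to 118 and 110 CPM in Vil-CREPTKO. Of these, 3 fell by the edgeR test, Trpm5, Avil and Sh2d6, beside 2.29% of all genes lower. The 6 goblet cell markers summed to 7066 and 7591 CPM in the WT libraries and to 5744 and 6012 CPM in those of Vil-CREPTKO. Of these, 0 were called by edgeR, 1 had an unadjusted p under 0.05 by edgeR, and 1, Clca1, was called lower by DESeq2. Spdef, Clca1 and Fcgbp lay lower without overlap, while Muc2, Tff3 and Agr2 overlapped. Fcgbp and Clca1 had the highest levels of the list, so the sum mainly follows them. Of the 7 Paneth cell markers, edgeR called Defa22, an antimicrobial peptide, higher (log2 fold change 2.24, adjusted p = 0.032), beside 0.423% of all genes higher. At an unadjusted p under 0.05 by edgeR there were 2, Defa22 and Defa17, the latter lower (log2 fold change -0.51). DESeq2 called Defa22 higher and Defa17 lower, while the sums of the 7 overlapped. The 5 markers of crypt base stem cells summed to 2236 and 1811 CPM in WT and 1471 and 2127 CPM in Vil-CREPTKO, with 0 called by edgeR, 0 at an unadjusted p under 0.05 and 0 called by DESeq2. Of the 5, 2, Lgr5 and Smoc2, lay lower in Vil-CREPTKO without overlap, beside 24.2% of all tested genes, while Olfm4, Ascl2 and Slc12a2 overlapped. Lgr5, the defining marker of crypt base stem cells, stood at 18.7, 18.2, 10.95 and 17.5 CPM (log2 fold change -0.38, SE 0.22), lowest in Vil-CREPTKO replicate 1. That library was also the lowest for Fgfr3, Fgfr4, Fgfrl1, Klb and the level gene Frs2, but not for Fgfr1, Fgfr2 or Fgfbp1. Nor was it the lowest for the stem cell marker Ascl2, at 9.27 CPM against 8.86 CPM in WT replicate 2. The 6 enteroendocrine markers summed to 391.2 and 363.1 CPM in WT and to 463.5 and 534.9 CPM in Vil-CREPTKO. Of these, 0 were called by edgeR or DESeq2, with 3 at an unadjusted p under 0.05 by edgeR, Chgb, Cck and Gip, all higher. Neurog3 went the other way and lay lower in Vil-CREPTKO without overlap (log2 fold change -0.48, SE 0.25), while Chga and Neurod1 overlapped. Chgb had the highest level of the list in every library and weighs most in the sum, so the list did not rise as a whole. The sums of the 6 enterocyte markers overlapped, with 0 called by edgeR, 1 at an unadjusted p under 0.05 and 1, Fabp1, called higher by DESeq2. The 5 pancreatic markers summed to 25.95, 17.11, 56.0 and 31.65 CPM, with 0 called by edgeR, 5 at an unadjusted p under 0.05 and 3 called higher by DESeq2. The part of these cells in the levels of the FGF receptors was not tested.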

How the data were processed

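RNA-seq libraries of mouse crypts were analysed, 2 from WT and 2 from Vil-CREPTKO mice, grouped and numbered by their titles. The values are whole-number read counts per Ensembl gene as deposited by the authors, 1 column per library, unpooled. The submitters' processing notes name CASAVA 1.8, Bowtie2, RSEM and GRCm38.p6. Strandedness was not given in the sources used here, and the methods name BGISEQ sequencing where the record names Illumina. Of 53845 genes, 53360 matched GENCODE M21, which gave symbols, coordinates and exon lengths.

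Counts were fitted in edgeR 4.0.16 (R 4.3.3) with filterByExpr, TMM scaling and a two-sided quasi-likelihood test with group as the only term, adjusted by Benjamini-Hochberg over 17504 genes. A gene was called whenever its adjusted p was under 0.05, whatever its fold change. The SE is the log2 fold change over the square root of F. CPM values use TMM-scaled totals. The fit was tested on simulated data. Counts per gene differed between replicates by far more than sampling noise (chi-square 49.8 per gene in WT and 70.1 in Vil-CREPTKO), so all libraries were used separately. P-values measure only the spread between these libraries, with a common biological coefficient of variation of 0.188. Floors cover counting error only.

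The receptors and partners and all gene and marker lists were chosen with earlier results of these data known. Named were the 9 genes, Rprd1b, list genes that passed (up to 4 a list), the 3 most abundant tested genes of each list, ligands at 1 CPM or more, the 5 genes most like Fgfr3, and markers where reported. Other genes are said to be picked after their values were seen. The value of 1 abundant list gene is not reported here. Alternatives were DESeq2 1.42.0, other scalings, filters and fold thresholds, a term for the replicate number, loess offsets for GC content and length, another transcript length and leaving out each library.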

Additional observations from a re-analysis of the deposited data

How the results depend on the processing

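Fgfr3 kept its negative log2 fold change in 13 of 13 alternatives, as did Fgfr4, Fgfr2 and Fgfrl1, although the adjusted p of Fgfr3 was over 0.05 in 5 of the 13 by edgeR: upper-quartile scaling (0.059), GC and length offsets (0.089, and 0.11 with the replicate block), WT replicate 1 left out (0.076) and Vil-CREPTKO replicate 1 left out (0.11). Low counts limit Fgf15, Klb and Fgfr1. The count of lower genes (400) became 627 with DESeq2, 908 with no filter on low counts and 235 with an absolute log2 fold change over 1, and ran from 332 to 462 with a library left out. The count of higher genes (74) became 184 with DESeq2 and 325 with no filter, and ran from 80 to 234 with a library left out (142 when WT replicate 1 was left out, 234 when Vil-CREPTKO replicate 2 was). The number of lower FGF pathway genes outside the 9 (0) became 3 with DESeq2, 2 with library totals alone and 5 with no filter, and ran from 0 to 2 with a library left out. With the replicate block it became 1, Spry4, at a log2 fold change of -2.47 (edgeR adjusted p = 0.041). The labels tie the same-numbered libraries by that number alone. Their deviations had a correlation of 0.0277 across genes, which with 2 libraries a group cannot tell whether they shared a batch. The log2 fold change of Fgfr2 was -0.34 with DESeq2, -0.33 with RLE, -0.32 with upper-quartile scaling, -0.45 with library totals and -0.29 with GC and length offsets, with or without the replicate block. With a library left out, Fgfr1 ran from 1.0 to 3.45 and Klb from -3.78 to -0.52. Fgfbp1 was 0.028 with library totals. With the longest coding transcript, the share of Fgfr3 among the kinases was 58.0% in WT replicate 1, and 51.9% and 54.9% in Vil-CREPTKO replicates 1 and 2. Fgf2, at 0.19 with all libraries, ran from -0.29 without WT replicate 2 to 0.94 without WT replicate 1. The causes were not tested.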
